A study of Homo sapiens with 4 samples.

Results

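The genes described here are 44 genes of the lysosome, taken from a count table of 61806 genes by their gene symbols: 15 subunits and accessory proteins of the vacuolar ATPase (V-ATPase), 9 cathepsins, 8 other hydrolases and activators, 7 membrane and cholesterol transport proteins and 5 regulators linked to the transcription factor TFEB. All 44 symbols were found, 1 row each. The rule itself uses no measured value, but the genes were picked with earlier results of these data known. The study treated 2 human cancer cell lines, MDA-MB-231 and MDA-MB-435, labelled as wild-type cells of a breast cancer and of a melanoma, with CPYPP, an inhibitor of the DOCK2 guanine nucleotide exchange factor that the study used to induce paraptosis, a cell death marked by cytoplasmic vacuoles. Poly(A) RNA was sequenced from 4 libraries, a control and a CPYPP library of each line (10 µM, 6 h), with 1 library per condition. What the control cells received in place of CPYPP is not given in the labels.

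Lysosomes are acidified by the V-ATPase, a rotary proton pump in which the cytosolic V1 sector hydrolyses ATP and the membrane V0 sector carries protons. The low pH serves the cathepsins and glycosidases that degrade proteins, glycans and lipids inside the organelle, and its membrane is lined by glycoproteins such as LAMP1 and LAMP2. TFEB, TFE3 and MITF are related helix-loop-helix factors that bind E-boxes in lysosomal promoters. RRAGC, RRAGD and FLCN act at the lysosome surface, where nutrients recruit the kinase mTORC1, which keeps TFEB and TFE3 out of the nucleus.

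Promoter sequence of 4 members is shown because the E-box CACGTG, the core of the element that TFEB recognises, is what links lysosomal genes to this factor, and because the gene with the largest common change, GLA, lacked it. The sequences are the 250 bases before the RefSeq transcription start (GRCh38.p14, 5′ to 3′ on the gene's own strand), in lower case, with each CACGTG and each match to the antioxidant response element core TGACNNNGC, searched on both strands, in capitals.
GLA (chrX:101407926-101408175, minus strand): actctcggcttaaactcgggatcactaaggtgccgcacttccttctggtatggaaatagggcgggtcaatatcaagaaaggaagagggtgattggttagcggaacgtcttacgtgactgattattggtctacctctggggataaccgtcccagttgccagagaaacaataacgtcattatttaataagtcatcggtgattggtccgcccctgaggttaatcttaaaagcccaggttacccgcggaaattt
LAMP1 (chr13:113296989-113297238, plus strand): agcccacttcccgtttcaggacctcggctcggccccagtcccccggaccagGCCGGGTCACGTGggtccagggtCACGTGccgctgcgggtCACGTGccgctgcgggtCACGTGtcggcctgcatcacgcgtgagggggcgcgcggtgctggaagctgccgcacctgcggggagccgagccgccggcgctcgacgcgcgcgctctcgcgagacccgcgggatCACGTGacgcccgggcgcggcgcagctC
MCOLN1 (chr19:7522374-7522623, plus strand): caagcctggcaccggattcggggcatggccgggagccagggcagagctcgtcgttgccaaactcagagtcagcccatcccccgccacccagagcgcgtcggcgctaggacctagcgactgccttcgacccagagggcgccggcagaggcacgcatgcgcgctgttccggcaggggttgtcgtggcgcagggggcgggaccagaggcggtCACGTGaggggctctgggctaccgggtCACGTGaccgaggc
ATP6V1G1 (chr9:114587519-114587768, plus strand): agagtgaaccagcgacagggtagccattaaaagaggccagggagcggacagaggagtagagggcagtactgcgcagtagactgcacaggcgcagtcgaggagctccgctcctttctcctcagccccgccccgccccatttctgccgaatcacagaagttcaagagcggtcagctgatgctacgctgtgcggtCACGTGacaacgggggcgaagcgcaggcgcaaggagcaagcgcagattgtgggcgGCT
In LAMP1, a match to the antioxidant core overlapped the first E-box, and in ATP6V1G1 the last 3 capitals begin such a match that runs past the start. The last capital of LAMP1 is the first base of a further CACGTG that runs past the start. Windows of 300 bases (250 before to 50 after the start) were on hand for 32 of the 44 members. CACGTG occurred in 11 of these 32 genes (34.4%), against 8.77% of 27305 genes with a window. The longer form TCACGTG, which always holds CACGTG, occurred in 10 of 32 (31.2%), against 4.49%. The genes were picked as lysosomal, and this E-box is known from lysosomal promoters, so its excess does not test a link to TFEB. TGACNNNGC occurred in 15 of 32 (46.9%), against 16.1%. GLA had no CACGTG in its window and held 1 antioxidant core match after the start. The 11 members with CACGTG had a median log2 fold change on CPYPP of 0.11 in MDA-MB-231 cells and 0.13 in MDA-MB-435, and the 21 members without it had 0.21 and 0.08. The 2 medians stood in opposite order in the 2 lines, and these letter matches describe the windows only.

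The libraries held between 17196385 and 22663954 counts, and the 44 members took 0.490% of the MDA-MB-231 control, 0.526% of its CPYPP library, 0.638% of the MDA-MB-435 control and 0.662% of its CPYPP library. The culture and treatment notes of all 4 samples mention MDA-MB-435 only, so each library was placed by its own cell line label. Of the markers fixed for the lines, EGFR had 12150 and 8161 counts in MDA-MB-231 cells and 70 and 33 in MDA-MB-435, while SOX10, a melanocyte factor, had 0 and 1 in MDA-MB-231 cells and 3031 and 707 in MDA-MB-435. The pigment genes PMEL, MLANA, TYR and TYRP1 had between 2 and 16 counts in the MDA-MB-435 libraries, and DCT had 658 and 464. In MDA-MB-231 cells, PMEL had 34 and 29 counts, MLANA 8 and 14, TYRP1 3 and 1, DCT 1 and 3, and TYR 0. KRT7 (24.5-fold), KRT8 (26-fold), AXL (2.34-fold) and KRT18 (1.51-fold) were also higher in the MDA-MB-231 control. Not every fixed marker followed its line. CD44 was 1.26-fold higher in the MDA-MB-435 control, and MITF, a melanocyte factor, was 1.19-fold higher in the MDA-MB-231 control. In bulk RNA, a change in the cells present and a change of RNA per cell cannot be told apart.

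Across the 44 members, CPYPP was followed by small shifts that lay mostly upward. A common effect of CPYPP was estimated from all 4 libraries, with a block for the line (edgeR's quasi-likelihood test, Benjamini-Hochberg adjustment over 16801 genes). Its error is the disagreement between the lines and not a spread between cultures. GLA and ATP6V1C1 rose (2 of 44, 4.55% of the members), and the same rule called 4.39% of all genes higher, so the share was near the background. No member fell, where 2.85% of all genes did. At an unadjusted p under 0.05, 13 members were higher and 0 lower, against 10.7% and 10.4% of all genes. DESeq2 called 11 members higher and 0 lower after adjustment, against 10.1% and 6.91% of the 12566 genes to which it gave an adjusted p, and at an unadjusted p it had 16 higher and 2 lower, against 11.3% and 9.4% of all genes. Without the block for the line, edgeR called 0 members, and 1 had an unadjusted p under 0.05.

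Within a line there is no replicate and no test. The fold of normalized counts is given there with an exact 95% binomial interval, which covers counting error only. In MDA-MB-231, CTSK, GLA and TFEB were higher past a fold of 2 (3 of 44, 6.82%, against 5.32% of all genes), and no member was lower past that fold (5.52% of all genes). The same 3 were all that passed a fold of 1.5 (12% of all genes higher, 12.1% lower). In MDA-MB-435, 43 members had at least 10 counts in a library, and GLA alone was higher past a fold of 2 (2.33%, against 3.45% of all genes). A fold of 1.5 was passed by 4 members there (9.30%, against 8.69%), namely GLA, CTSK, RRAGD and ATP6V1C1. No member was lower past either fold in MDA-MB-435, where 10.9% of all genes were lower past 2 and 20.7% past 1.5. TFEB, with a fold of 0.669 (0.530 to 0.841), was just inside the limit of 1.5 there. It passed that limit with upper-quartile or total-count scaling.

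The direction was more marked than the size. In MDA-MB-231, 35 of 44 members lay above a log2 fold change of 0 and 9 below, and in MDA-MB-435 34 of 43 lay above and 9 below. The member medians were 0.15 and 0.14, beside medians of −0.02 and −0.09 over all genes tested. Both lines put 29 of the 43 shared members above 0 (67.4%), and 30.2% of the 14262 genes tested in both lines had that pattern, while 4 members lay below 0 in both. That background reaches down to genes with 10 counts in 1 library, and none was computed for genes at the members' levels. The members were also picked with earlier results of these data known. The counting interval of the fold lay wholly above 1 for 24 members, wholly below for 5 and held 1 for 15 in MDA-MB-231. The same 3 numbers were 24, 6 and 13 for MDA-MB-435. The share of all genes with such intervals was not computed, so these counts have no background beside them.

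**Figure D1:**
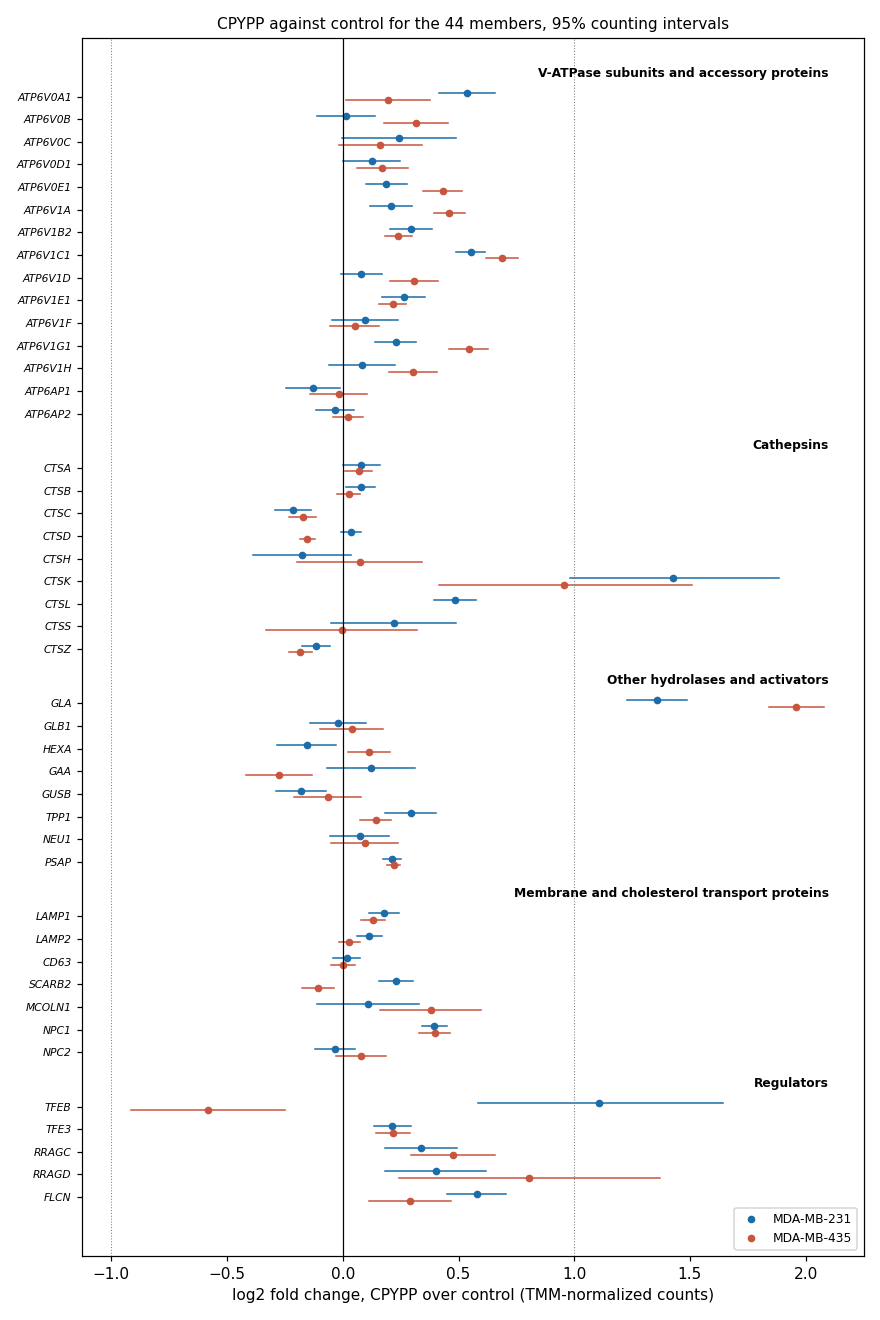
Log2 fold change of TMM-normalized counts, CPYPP over control (x axis), for each member (y axis, grouped by role) in MDA-MB-231 (blue) and MDA-MB-435 (red); points are the fold from 1 library per condition, lines the 95% counting interval, and dotted lines a fold of 2 either way. GLA stands to the right in both lines, TFEB lies on opposite sides of 0, and most V-ATPase subunits lie above 0.

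The V-ATPase genes lay mostly above their controls by small folds. Of the 15 members, 13 lay above 0 in MDA-MB-231 cells and 14 in MDA-MB-435. Their medians were 0.19 and 0.24, beside −0.02 and −0.09 over all genes tested. The counting interval lay wholly above 1 for 8 and 11 of the 15, and the share of all genes with such an interval was not computed. Summed over the 15 genes, the normalized counts (CPM, counts scaled to a common library size by the TMM factors) were 1209 in the control and 1409 in the CPYPP library of MDA-MB-231, a fold of 1.17 (1.14 to 1.19), and 1425 and 1757 in MDA-MB-435, a fold of 1.23 (1.22 to 1.25). ATP6V1C1 was the 1 subunit of the 15 that passed the test in edgeR, where 4.39% of all genes were called higher. DESeq2 called 4, ATP6V1B2, ATP6V1C1, ATP6V1E1 and ATP6V1G1, all higher, against 10.1% of the genes to which it gave an adjusted p.

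ATP6V1C1 encodes the C subunit of V1, which helps hold the catalytic sector to the membrane sector, and lies at chromosome 8, positions 103021063 to 103073051 (GRCh38). It had 3944 counts in the control and 4271 in the CPYPP library of MDA-MB-231, beside 3085 and 4061 in MDA-MB-435, or 176, 259, 130 and 210 CPM. Both CPYPP libraries were thus above both control libraries. The fold was 1.47 (1.41 to 1.53) in MDA-MB-231 cells and 1.61 (1.54 to 1.69) in MDA-MB-435, and the common log2 fold change was 0.62 ± 0.109 (SE) with an adjusted p of 0.00778 (edgeR).

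The other V1 subunits had smaller folds. ATP6V1G1, of the peripheral stalk, had 99.5 and 117 CPM in MDA-MB-231 cells and 85.9 and 125 in MDA-MB-435, a fold of 1.17 (1.10 to 1.25) and 1.46 (1.37 to 1.55), and its common change of 0.39 ± 0.120 (SE) had an adjusted p of 0.0834 in edgeR's fit. The catalytic subunit ATP6V1A had 93.1 and 108 CPM in MDA-MB-231 cells and 147 and 202 in MDA-MB-435, with folds of 1.15 (1.08 to 1.23) and 1.38 (1.31 to 1.44). ATP6V1B2, the partner of ATP6V1A in the ATP-binding ring, had folds of 1.23 and 1.18, and ATP6V1E1, a stalk subunit, 1.20 and 1.16, each with both intervals above 1. ATP6V1D, in the central rotor, and ATP6V1H, which regulates the coupling of the sectors, had folds of 1.06 and 1.06 in MDA-MB-231, with intervals that held 1, and 1.24 and 1.23 in MDA-MB-435. ATP6V1F had 1.07 and 1.04, and both of its intervals held 1. ATP6V1D overlaps PALS1 by 41691 bases on the opposite strand, and the strand setting of the counting is not given. PALS1 had 4424 and 2437 counts in MDA-MB-231 cells and 1403 and 1138 in MDA-MB-435.

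In the V0 sector, ATP6V0A1, the proton channel's large subunit, had 1069 and 1144 counts in MDA-MB-231 cells and 519 and 485 in MDA-MB-435. These are 47.8 and 69.3 CPM, a fold of 1.45 (1.33 to 1.58), and 21.9 and 25.1 CPM, a fold of 1.14 (1.01 to 1.30). The common change of 0.37 ± 0.147 (SE) had an adjusted p of 0.175 (edgeR). ATP6V0E1 had folds of 1.14 and 1.35, ATP6V0D1 1.09 and 1.13, ATP6V0C, whose product forms the proton-carrying ring, 1.18 and 1.12, and ATP6V0B 1.01 and 1.25. The accessory proteins lay close to their controls. ATP6AP1 had folds of 0.915 (0.844 to 0.992) and 0.987, and ATP6AP2, also known as the prorenin receptor, 0.976 and 1.02.

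GLA had the largest common change of all the members, and the largest fold in MDA-MB-435. It encodes alpha-galactosidase A, which removes terminal galactose from glycolipids and is deficient in Fabry disease, and lies at chromosome X, positions 101393273 to 101408012, on the minus strand (GRCh38). The counts were 742 in the control and 1403 in the CPYPP library of MDA-MB-231, and 761 and 2417 in those of MDA-MB-435, or 33.2, 85.0, 32.2 and 125 CPM. The MDA-MB-231 control was at 1.03 times (0.931 to 1.14) the level of the MDA-MB-435 control, and both CPYPP libraries stood well above them. The folds were 2.56 (2.34 to 2.80) in MDA-MB-231 cells and 3.89 (3.58 to 4.22) in MDA-MB-435. In MDA-MB-231, CTSK had a larger fold (2.69). In the common fit, the log2 fold change of GLA was 1.66 ± 0.156 (SE) with an adjusted p of 0.000243 (edgeR).

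On the plus strand, RPL36A overlaps GLA by 2883 bases and had 1514 and 925 counts in MDA-MB-231 cells and 1770 and 1535 in MDA-MB-435. Its folds were 0.828 and 1.06. The readthrough gene RPL36A-HNRNPH2, which spans GLA on that strand, had between 1 and 5 counts in the 4 libraries. The strand setting of the counting is not given in the sources used here, so reads of GLA and of these overlapping genes cannot be fully told apart.

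The other hydrolases and activators lay close to their controls. PSAP, the precursor of the saposins that present sphingolipids to their hydrolases, had the highest level per transcript length of the 44 members in every library, 667 and 790 TPM (counts divided by exon length and scaled to a common total) in MDA-MB-231 cells and 1106 and 1278 in MDA-MB-435. Its fold was 1.16 (1.13 to 1.19) and 1.16 (1.14 to 1.19), and the common change of 0.22 ± 0.109 (SE) had an adjusted p of 0.297 (edgeR). TPP1, a tripeptidyl peptidase, had folds of 1.22 (1.13 to 1.32) and 1.10 (1.05 to 1.16). GLB1, the beta-galactosidase, had 0.985 and 1.03, and NEU1, the lysosomal sialidase, 1.05 and 1.07, all with intervals that held 1.

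HEXA, GAA and GUSB gave mixed values. HEXA, a subunit of beta-hexosaminidase, had 56.2 and 50.4 CPM in MDA-MB-231, a fold of 0.898 (0.821 to 0.981), and 88.6 and 95.9 in MDA-MB-435, a fold of 1.08 (1.02 to 1.15). GAA, which breaks down glycogen, had folds of 1.09 (0.954 to 1.24) and 0.825 (0.747 to 0.911). GUSB, the beta-glucuronidase, had 0.883 (0.819 to 0.951) and 0.955 (0.864 to 1.06), and it shares sequence with several pseudogenes, so its counts are uncertain. The medians of this group, 0.10 in each line, lay near the centre of these small values with GLA far above them.

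Among the cathepsins, most enzymes lay close to their controls, with CTSK in both lines and CTSL in MDA-MB-231 above them. CTSK, a collagen-degrading cysteine protease best known from osteoclasts, had 64 and 127 counts in MDA-MB-231 cells and 48 and 76 in MDA-MB-435, or 2.86, 7.69, 2.03 and 3.93 CPM. Both CPYPP libraries were above both controls, at low counts and so with wide intervals: the folds were 2.69 (1.98 to 3.69) and 1.94 (1.33 to 2.84). The common change of 1.20 ± 0.334 (SE) missed the threshold, with an adjusted p of 0.0582 in edgeR's fit.

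CTSL, a cysteine endoprotease, had 1927 and 1989 counts in MDA-MB-231, or 86.2 and 121 CPM, a fold of 1.40 (1.31 to 1.49). It had 0 counts in both MDA-MB-435 libraries, so no fold was taken there, and a count of 0 allows up to 3 counts, which is 0.127 CPM in the control and 0.155 CPM in the CPYPP library. Its common change rested on MDA-MB-231 alone and had an adjusted p of 0.175 (edgeR).

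CTSD, an aspartic protease and the cathepsin with the highest TPM, had 10220 and 7722 counts in MDA-MB-231, a fold of 1.02 (0.994 to 1.05), and 18828 and 13832 in MDA-MB-435, a fold of 0.899 (0.879 to 0.919). CTSC, which activates granule proteases, had 0.862 (0.817 to 0.909) and 0.886 (0.850 to 0.924), and CTSZ, a carboxypeptidase, 0.923 (0.886 to 0.961) and 0.880 (0.850 to 0.911). These were the 2 cathepsins whose interval lay below 1 in both lines, yet neither fell in the common test, with adjusted p-values of 0.349 and 0.487 (edgeR). CTSA and CTSB had folds between 1.02 and 1.06. CTSH had 0.886 and 1.05 and CTSS 1.17 and 0.997, with intervals that held 1. Summed over the 9 cathepsins, the CPM were 1329 and 1355 in MDA-MB-231 (fold 1.02, 1.00 to 1.04) and 1916 and 1789 in MDA-MB-435 (fold 0.934, 0.921 to 0.947).

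Of the membrane and transport proteins, NPC1, which exports cholesterol from the lysosome, stood highest. It had 260 and 342 CPM in MDA-MB-231 cells and 152 and 200 in MDA-MB-435. The fold was 1.32 in both lines, with intervals of 1.27 to 1.37 and 1.26 to 1.38, and the common change of 0.40 ± 0.107 (SE) had an adjusted p of 0.0520 (edgeR), just outside the threshold. NPC1 overlaps RMC1 on the opposite strand by 25639 bases, and RMC1 had 888 and 844 counts in MDA-MB-231 cells and 761 and 709 in MDA-MB-435. NPC2, the soluble partner that hands cholesterol to NPC1, had folds of 0.976 (0.919 to 1.04) and 1.06 (0.980 to 1.14), both holding 1.

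The structural glycoproteins shifted little. LAMP1 had folds of 1.13 (1.08 to 1.18) and 1.09 (1.05 to 1.14), LAMP2 1.08 (1.04 to 1.12) and 1.02 (0.987 to 1.05), and CD63, a tetraspanin of late endosomes, 1.01 and 1.00. SCARB2, an integral protein of the lysosome membrane, had 151 and 177 CPM in MDA-MB-231, a fold of 1.17 (1.12 to 1.23), and 172 and 159 in MDA-MB-435, a fold of 0.928 (0.885 to 0.973). MCOLN1, the calcium channel of the lysosome membrane, had 386 and 307 counts in MDA-MB-231 cells and 334 and 355 in MDA-MB-435, with folds of 1.08 (0.925 to 1.26) and 1.30 (1.12 to 1.51).

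The regulators had the highest group medians, 0.40 in MDA-MB-231 cells and 0.29 in MDA-MB-435. None of the 5 passed the common test in edgeR (4.39% of all genes higher), and 3 were higher at an unadjusted p under 0.05 (10.7%). DESeq2 called 3 higher after adjustment (FLCN, RRAGC and TFE3), against 10.1% of the genes to which it gave an adjusted p. TFEB was the 1 member of the group that lay on opposite sides of its controls. It had 51 and 81 counts in MDA-MB-231, or 2.28 and 4.91 CPM, and 216 and 118 in MDA-MB-435, or 9.13 and 6.10 CPM. The fold was 2.15 (1.5 to 3.12) in MDA-MB-231 cells and 0.669 (0.530 to 0.841) in MDA-MB-435, and the common change of 0.18 ± 0.386 (SE) had an adjusted p of 0.859 (edgeR). Between the lines, TFEB was 4-fold (2.94 to 5.55) higher in the MDA-MB-435 control, and the ratio was 1.24 (0.930 to 1.67) between the CPYPP libraries.

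TFE3, the related factor, was the more abundant transcript, with 116 and 138 TPM in MDA-MB-231 cells and 126 and 145 in MDA-MB-435, where TFEB had between 1.35 and 5.58 TPM in the 4 libraries. Its fold was 1.16 in both lines (1.10 to 1.23 and 1.10 to 1.22), with a common adjusted p of 0.292 (edgeR). The Rag GTPase RRAGC had 714 and 666 counts in MDA-MB-231 cells and 466 and 530 in MDA-MB-435, with folds of 1.26 (1.14 to 1.41) and 1.39 (1.23 to 1.58). RRAGD, its paralogue and a known TFEB target, had 348 and 339 counts in MDA-MB-231 cells and 47 and 67 in MDA-MB-435, with folds of 1.32 (1.13 to 1.54) and 1.74 (1.18 to 2.59). FLCN, which activates RRAGC and RRAGD by stimulating their GTP hydrolysis, had 43.4 and 64.8 CPM in MDA-MB-231 (fold 1.49, 1.37 to 1.63) and 22 and 27 in MDA-MB-435 (fold 1.22, 1.08 to 1.38). The adjusted p-values in edgeR's common fit were 0.135 for RRAGC, 0.194 for RRAGD and 0.104 for FLCN. FLCN overlaps the far more highly counted MPRIP by 5468 bases on the opposite strand, and MPRIP had 12468 and 8387 counts in MDA-MB-231 cells and 7210 and 4789 in MDA-MB-435.

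**Figure D2:**
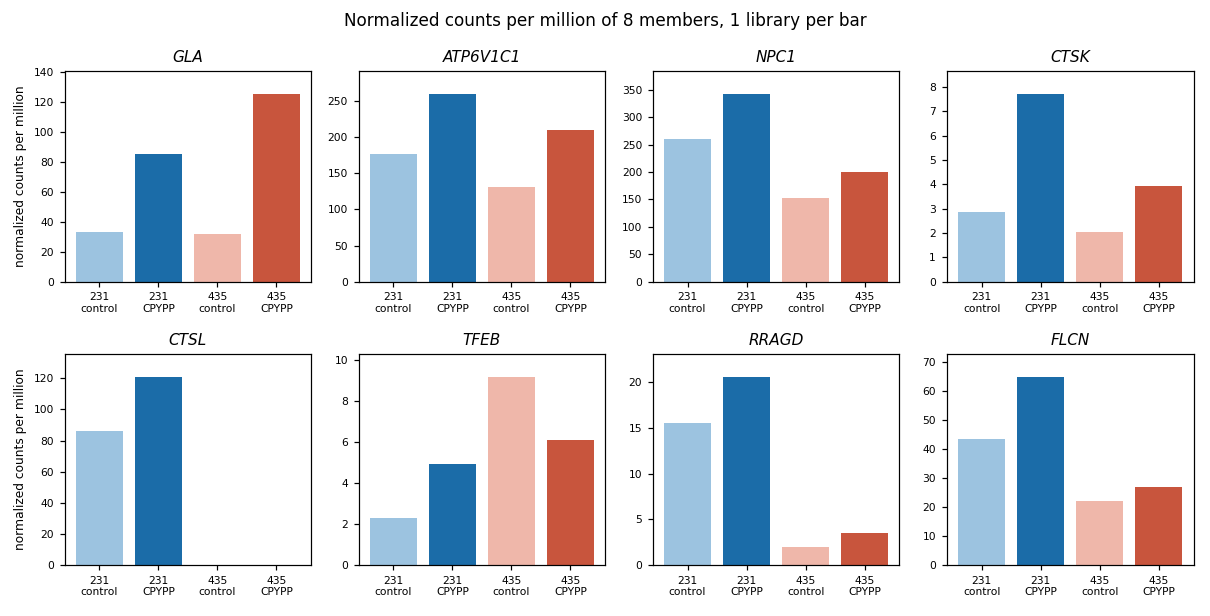
Normalized counts (CPM, y axis, from 0) of 8 members in the 4 libraries (x axis: MDA-MB-231 control and CPYPP, MDA-MB-435 control and CPYPP), 1 library per bar and so without error bars. GLA goes from 33.2 to 85.0 and from 32.2 to 125, TFEB from 2.28 to 4.91 and from 9.13 to 6.10, and CTSL has 0 counts in both MDA-MB-435 libraries.

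In these genes, the line difference passed the test more often than the CPYPP effect did. In the same fit, 20 members were higher and 16 lower in MDA-MB-435 than in MDA-MB-231 (45.5% and 36.4%, edgeR, adjusted over all genes), where 30.5% of all genes were higher and 32.4% lower. Without a block for the treatment, 15 members were called higher and 11 lower. A fold of 2 between the control libraries was less common, with 4 members higher and 5 lower in MDA-MB-435 (9.09% and 11.4%), against 23.8% and 21.5% of all genes. Summed over the 44 members, the TPM were 4000 and 5205 in the MDA-MB-231 and MDA-MB-435 controls, and 4577 and 5783 in their CPYPP libraries.

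CTSL and RRAGD separated the lines most. CTSL had 0 counts in MDA-MB-435. Against the floor of 3 counts in the MDA-MB-435 control, CTSL was 679-fold higher in the MDA-MB-231 control. The lower limit of the counting interval of this ratio was 552. RRAGD was 7.83-fold (5.76 to 10.9) higher in the MDA-MB-231 control, and its line difference of −2.76 ± 0.237 (SE, log2, MDA-MB-435 minus MDA-MB-231) had an adjusted p of 3.56e-06 (edgeR). ATP6V0A1 (2.18-fold), GUSB (2.11-fold), CTSH (2-fold) and FLCN (1.97-fold) were also higher in the MDA-MB-231 control, and all 4 passed the test of the line difference.

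In the other direction, TPP1 was 2.52-fold higher in the MDA-MB-435 control (line difference 1.26 ± 0.112 SE, adjusted p 4.68e-06, edgeR). The V1 subunits ATP6V1E1 (2.24-fold) and ATP6V1B2 (2.12-fold) were likewise higher there. The V-ATPase was split, with 7 of its 15 members called higher and 5 lower in MDA-MB-435, against 30.5% and 32.4% of all genes. Among the cathepsins, CTSA, CTSB, CTSC, CTSD and CTSZ were higher and CTSH, CTSL and CTSS lower. TFEB was higher in MDA-MB-435 by 1.15 ± 0.390 (SE, log2), with an adjusted p of 0.0249 in edgeR and 0.0899 in DESeq2. This estimate pools 2 unlike ratios, 4-fold (2.94 to 5.55) between the controls and 1.24 (0.930 to 1.67) between the CPYPP libraries. TFE3, GLA and SCARB2 had line differences of 0.07, 0.27 and 0.01, none past the threshold.

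**Figure D3:**
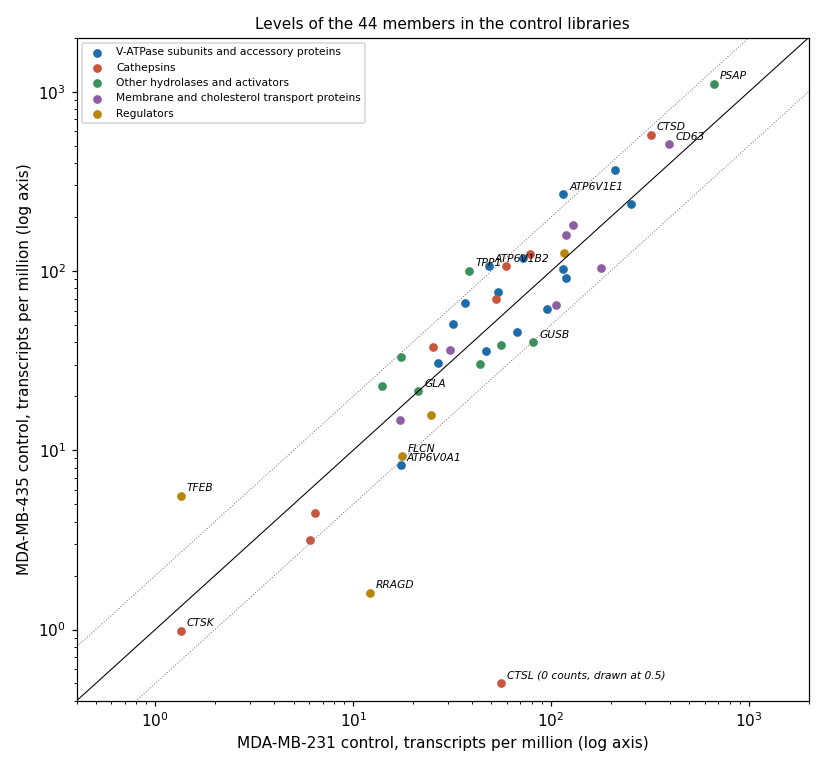
Level of each member (TPM, both axes logarithmic) in the MDA-MB-231 control (x axis) and the MDA-MB-435 control (y axis), coloured by group; the solid line marks equal levels and the dotted lines a fold of 2. Most members lie between the dotted lines. RRAGD, CTSL, ATP6V0A1 and GUSB lie below them, and TFEB, TPP1, ATP6V1E1 and ATP6V1B2 lie above. CTSL has 0 counts in MDA-MB-435 and is drawn at 0.5 to fit the axis.

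The size of the response in 1 line against the other could not be tested, since an interaction leaves no residual degree of freedom. As ratios with counting intervals only, the fold of GLA in MDA-MB-435 was 1.52 times (1.34 to 1.71) its fold in MDA-MB-231, and that of ATP6V1G1 was 1.24 times (1.14 to 1.35). The ratio was 0.789 (0.679 to 0.915) for ATP6V0A1, 0.819 (0.706 to 0.951) for FLCN and 0.311 (0.205 to 0.471) for TFEB. For NPC1, TFE3 and PSAP the ratios were 1.00 (0.943 to 1.06), 1.00 (0.929 to 1.08) and 1.01 (0.973 to 1.04).

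Lists of lysosome-linked genes outside the 44 had medians between −0.19 and 0.19, and their genes lay on both sides of 0. Of 31 other lysosomal hydrolases, 12 lay above 0 and 19 below in MDA-MB-231, and 11 and 19 of the 30 tested did in MDA-MB-435. Their medians were −0.10 and −0.06, and 0 passed the common test in edgeR or DESeq2 in either direction. At an unadjusted p under 0.05, 1 was higher and 2 lower in edgeR (10.7% and 10.4% of all genes). In DESeq2, 2 were higher and 3 lower at that limit (11.3% and 9.4%). The other V-ATPase isoforms had medians of −0.04 and −0.02, the other membrane proteins −0.02 and 0.08, and the sorting proteins 0.11 and 0.02. The genes of mTORC1 docking and TFEB regulation had medians of −0.02 and −0.19. Of the 21 tested, 4 were called higher and 1 lower in edgeR (4.39% and 2.85% of all genes), and 4 and 3 in DESeq2 (10.1% and 6.91%). At an unadjusted p under 0.05, 4 were higher and 6 lower in edgeR (10.7% and 10.4%), and also in DESeq2 (11.3% and 9.4%). The TFEB and TFE3 targets outside the lysosome lumen had medians of 0.19 and 0.13, with 2 of 8 called higher by each tool.

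Genes of these lists that passed the test in edgeR included SQSTM1, MAP1LC3B, FNIP1, FNIP2 and TSC1, all higher. SQSTM1, the autophagy receptor p62, had 7767 and 17543 counts in MDA-MB-231 cells and 11261 and 23181 in MDA-MB-435, and its common log2 fold change was 1.47 ± 0.120 (SE) with an adjusted p of 8.44e-05 (edgeR). MAP1LC3B, the autophagosome protein LC3B, had folds of 1.56 (1.47 to 1.64) and 1.75 (1.66 to 1.85) and rose by 0.72 ± 0.111 (SE, log2) with an adjusted p of 0.00389 (edgeR). FNIP1 and FNIP2, which form the complex with FLCN, had folds of 1.97 and 1.69 and of 2.02 and 1.77, and rose by 0.87 and 0.92 on the log2 scale with adjusted p-values of 0.00221 and 0.00449 (edgeR). TSC1, which restrains mTORC1, had folds of 1.75 and 1.47 and rose by 0.68 on the log2 scale (adjusted p 0.0121, edgeR).

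MITF, the third E-box factor of the family described here, fell. It had 1585 and 690 counts in MDA-MB-231 cells and 1405 and 809 in MDA-MB-435, with folds of 0.590 (0.539 to 0.646) and 0.705 (0.645 to 0.769), and its common log2 fold change was −0.63 (adjusted p 0.0198, edgeR). GPNMB, a target of this family, had 32 and 44 counts in MDA-MB-231 cells and 4507 and 3542 in MDA-MB-435, with an adjusted p of 0.726 (edgeR) for the common change. In MDA-MB-231, TFEC went from 4 to 19 counts, CD68 from 14 to 3 and CTSW from 14 to 4, all too few for a narrow interval. IGF2R, the receptor that delivers hydrolases by their mannose 6-phosphate tag, and the calcineurin subunit PPP3R1 were singled out after their values were seen. IGF2R had folds of 1.55 and 1.34 and PPP3R1 of 1.27 and 1.74, with adjusted p-values of 0.0198 and 0.0248 (edgeR).

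**Figure D4:**
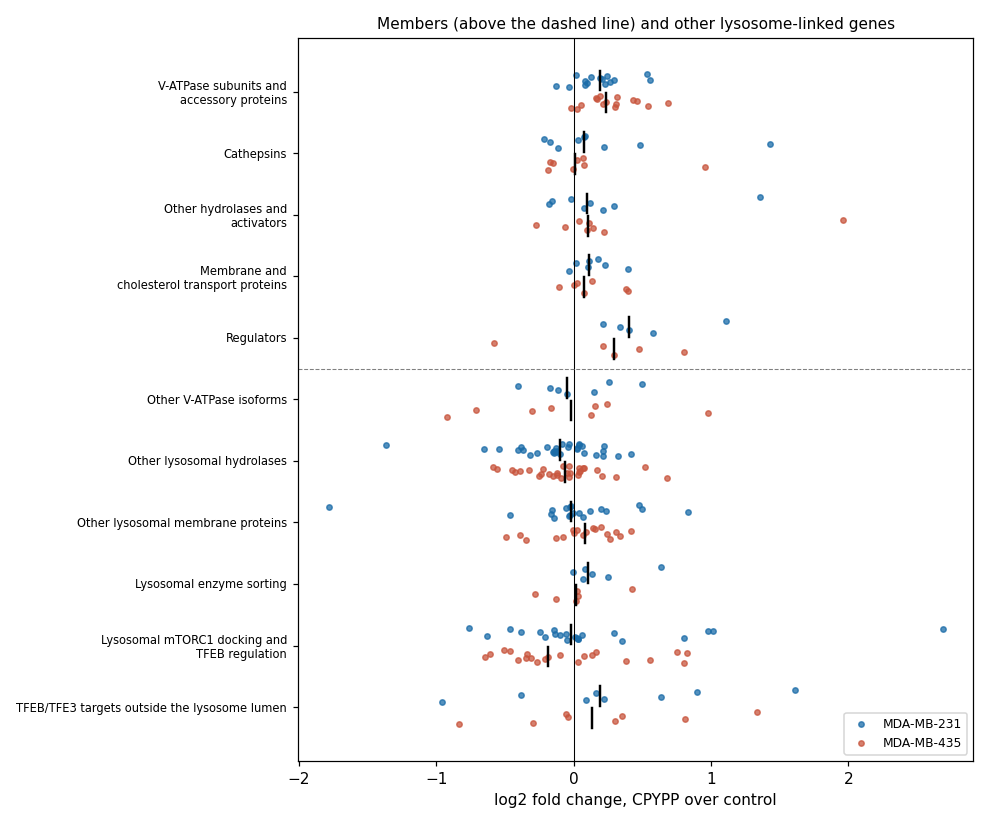
Log2 fold change, CPYPP over control (x axis), of every gene with at least 10 counts in a library of the line, by list (y axis), in MDA-MB-231 (blue) and MDA-MB-435 (red), with the list's median as a black bar; members lie above the dashed line and other genes below it. The medians of the regulators are 0.40 and 0.29 and those of the other lysosomal hydrolases −0.10 and −0.06.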

How the data were processed

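Poly(A) RNA of 4 libraries was sequenced. Per the labels, the authors deposited raw read counts per gene, without normalization. The submitters' processing notes list cutadapt 1.9.1, HISAT2 2.2.1, HTSeq 0.6.1, DESeq2 and the build GRCh37.p13. The gene positions in the table, however, follow GRCh38: 41597 of 58254 genes shared with GENCODE 29 had the same start and end, and all 44 members overlapped theirs. The strand setting is not given in the sources used here.

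The counts were analysed with edgeR 4.0.16 and DESeq2 1.42.0 in R 4.3.3, and with scipy 1.17.1, numpy 2.4.6, pandas 2.3.3 and matplotlib 3.10.9 in Python 3.11.15. After filterByExpr, 16801 genes with TMM factors between 0.961 and 1.05 entered a quasi-likelihood fit with terms for line and treatment (1 residual degree of freedom, common dispersion 0.0146), and an adjusted p under 0.05 was called. The fit was run on counts simulated with its own common dispersion and the same CPYPP effect in both lines. It recovered 84 of 109 genes changed by a log2 of 1 and 81 of 91 changed by 1.5, with 11 false calls. Lines that respond unlike each other were not simulated, so this run does not cover that case. Within a line, genes with at least 10 counts in 1 of the 2 libraries were compared by the fold of TMM-normalized counts, with 2 (the study's fold) and 1.5 as limits. The floor was 3 counts. With 17196385 to 22663954 counts per library, intervals are wide for genes near 10 counts. They cover counting error only, since each condition had 1 library. Reads without molecular identifiers are not independent molecules, so the intervals may be too narrow even for counting error.

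The members and lists were chosen with earlier results of these data known. Named genes outside the 44 were the 5 largest common rises and falls that passed the test in the lists, those past a fold of 2 in a line, and MITF, SQSTM1 and GPNMB. The alternatives covered normalization, filters, the test, the blocks and the interval.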

Additional observations from a re-analysis of the deposited data

Results flagged for a closer look

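In 3 members, the folds in the 2 lines lay on opposite sides of 1 beyond their counting intervals, with 1 library per condition, and the difference was not tested. For TFEB, the log2 fold change in MDA-MB-435 minus that in MDA-MB-231 was −1.69, and the opposite directions held under TMM, DESeq2 size factors, upper-quartile and total-count scaling. For SCARB2 it was −0.34, and the directions were opposite under the same 4 scalings. For HEXA it was 0.27, and the intervals were on opposite sides under TMM and DESeq2 size factors and not under the other 2 scalings. Under total counts, LAMP2 was on opposite sides as well.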

How the results depend on the processing

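The common effect of CPYPP on the members was the result most dependent on the setting. Members called higher numbered 2 in the report, 4 with DESeq2 size factors, with no filter or with at least 10 counts in every library, 5 among genes with a symbol, 11 with DESeq2 and 0 without the line block. With upper-quartile or total-count scaling they were GLA, ATP6V1C1 and CTSK. GLA and ATP6V1C1 were called in every setting with the line block. CTSK, with adjusted p-values between 0.00387 and 0.0582 in those settings (edgeR or DESeq2), was called in all of them but the main one. NPC1, with adjusted p-values between 7.02e-07 and 0.0565 (edgeR or DESeq2), missed the threshold in the main setting and with upper-quartile or total-count scaling. Without the line block no gene was called (167 had an unadjusted p under 0.05), and the line difference then adds to the error. All genes called higher numbered 737 and rose to 1263 with DESeq2 and fell to 0 without the block, and those called lower numbered 478 and were 812 with upper-quartile scaling, 1111 with total counts, 850 with no filter, 855 among genes with a symbol, 868 with DESeq2 and 0 without the block. Counting only folds whose interval lay wholly past the limit left 1 member past 2 in MDA-MB-231 (GLA) and 2 past 1.5 in MDA-MB-435 (GLA and ATP6V1C1). In MDA-MB-435, 1 member (TFEB) was lower past 1.5 with upper-quartile or total-count scaling, and with total counts the median was −0.064 for the cathepsins and 0.0038 for the membrane proteins. The median of all genes moved from −0.021 to −0.081 in MDA-MB-231 and from −0.065 to −0.165 in MDA-MB-435 across scalings. The other 140 comparisons of a main result with an alternative changed by less than their limits, and no value changed sign with a call. The cause of these moves was not tested. Without the treatment block, the line difference of 10 members missed the threshold (TFEB, RRAGC, LAMP1, LAMP2, CD63, CTSS, CTSZ, ATP6AP1, ATP6V0B and ATP6V1C1, with adjusted p-values between 0.0599 and 0.353), which left 15 higher and 11 lower. That of TFEB was also lost with DESeq2 (adjusted p 0.0899). The line block pairs the control and CPYPP libraries of a line. No further pairing could be made, since the labels give no replicate numbers, and no library could be left out because each condition has 1.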

Other observations

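GALC and LAMP3, singled out after their values were seen, resembled CTSL in having 0 counts in both MDA-MB-435 libraries. GALC, the galactocerebrosidase lacking in Krabbe disease, had 1589 and 1026 counts in MDA-MB-231 without and with CPYPP. Against a floor of 3 counts in the MDA-MB-435 control, GALC was 560-fold higher in the MDA-MB-231 control. The lower limit of its counting interval was 455. LAMP3 had 36 and 37 counts in MDA-MB-231 and was 12.7-fold higher in its control on the same floor, with a lower limit of 9.80.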
